A study of Mus musculus with 6 samples.

Results

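The classical cadherins and the non-clustered protocadherins were followed in cultured mouse neural stem cells with and without a deletion of Phf2, a gene of the Jumonji family of histone demethylases. Members were chosen by symbol alone (Cdh or Pcdh followed by a number, or Pcdh, a number and x), which gave 35 of the 24503 gene symbols in the count table, 23 cadherins and 12 protocadherins. No measured value entered that choice. The label fits most members but not all: besides the type I and type II classical cadherins, the symbols include the lipid-anchored Cdh13, the tip link genes Cdh23 and Pcdh15, and Cdh16, Cdh17 and Cdh26, which are not classical cadherins.

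RNA was sequenced from primary neural stem cells taken from the cortex of embryos at E13.5, enriched as neurospheres and grown on laminin with FGF and EGF. All embryos were Phf2flox/flox. The control group (WT, 3 libraries) had no Cre, and the mutant group (KO, 3 libraries) also carried the Nestin-Cre transgene of the B6.Cg-Tg(Nes-cre)1Kln/J line, which drives Cre in neural progenitors from the Nestin promoter. The labels name no Cre-only control, so the transgene and the deletion cannot be told apart, and they do not say whether the 3 libraries of a group came from separate embryos or cultures, so p-values measure the spread between these libraries, which may be technical.

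Cadherins are calcium-dependent adhesion proteins whose extracellular repeats bind cadherins on the neighbouring cell. Classical cadherins hold beta-catenin and p120-catenin on their cytoplasmic tails, and alpha-catenin links the complex to actin. In the ventricular zone such junctions, built largely on N-cadherin (Cdh2), join the apical endfeet of radial glia, while type II cadherins and delta protocadherins are expressed in regional patterns and sort cells and axons. Delta protocadherins lack the catenin-binding tail, and several bind the WAVE actin regulators.

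Total counts were 33413444 to 46890314 per library. Phf2 itself fell from 92.3 ± 15.5 CPM (TMM-scaled counts relative to library size) to 51.1 ± 4.56 in KO (SD, n = 3). These counts cover the whole gene, also exons that the deletion leaves, and do not show in what share of cells it was deleted. The libraries numbered 1 stood apart in both groups, as described for each member below, and the least distant libraries of a group were KO 2 and KO 3. Deviations from the group mean correlated across genes between same-numbered WT and KO libraries (0.854, 0.604 and 0.580). Results are therefore given without and with the replicate number as a block. WT 2 with KO 3 (0.633) and WT 3 with KO 2 (0.578) correlated as well. A gap in number 1 alone moves numbers 2 and 3 together, so these correlations match number 1 only. In these bulk samples, fewer cells of a type and less RNA per cell cannot be told apart. Stem cell markers were abundant, with 9957 to 11750 summed CPM over 12 markers in WT and 9937 to 11700 in KO. In the libraries numbered 1, 11 of these 12 markers were lower in both groups, against 37.9% of all genes. The other, Nes, was higher, at 1738 and 1748 CPM in WT 1 and KO 1 and 687 to 807 CPM in the other libraries. The 9 oligodendrocyte lineage markers were also high, with 3568 to 4322 and 3550 to 3787. The 8 astrocyte markers summed to 744.6 to 1835 CPM in WT and 950.5 to 2336 in KO, and 2 rose and 4 fell with the block, among them Sparcl1 (1.13 ± 0.0712), Aldh1l1 (−1.98 ± 0.123) and Gfap (−1.12 ± 0.126, log2, SE). The 10 neuron markers summed to 792.2 to 1105 and 850.1 to 1076 CPM, and 2 of 7 tested fell, Syt1 (−0.93 ± 0.0797) and Stmn2 (−1.38 ± 0.363). Of the stem cell markers, Hes5 rose by 0.32 ± 0.0687 and Prom1 fell (−1.35 ± 0.130). Hes5 was at 18.3 and 23.4 CPM in WT 1 and KO 1 and at 232 to 312 CPM in the other libraries. Without the block its change was 0.31 ± 1.14 (log2, SE). The numbers of markers that rose or fell stand beside 3.33% of all genes higher and 6.46% lower. The part of these markers in the members' differences was not tested. The 8 endothelial markers summed to 2.16 to 2.70 CPM in WT and 1.86 to 2.56 in KO, the 8 epithelial and choroid plexus markers to at most 0.89, and the 6 microglial markers to at most 1.19, with Aif1 and Ptprc at 0 in every library.

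Of the 35 members, 21 had enough counts to be tested, each with at least 12 counts in every library, so none entered through 1 group alone. The other 14 were at or near 0. Cdh1 (E-cadherin of epithelia), Cdh3, Cdh5 (VE-cadherin of endothelium), Cdh7, Cdh8, Cdh16 and Cdh18 had 0 counts in all 6 libraries, which allows up to 0.0636 to 0.0892 CPM per library (3 counts, counting error only). Cdh9, Cdh12, Cdh15, Cdh17, Cdh23, Cdh26 and Pcdh12 had at most 12 counts summed over the 6 libraries. No direction can be read for these 14 at this depth.

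Per kilobase of annotated exon, the cultures held mostly 4 cadherins. Cdh4 (R-cadherin, a type I cadherin of the developing brain) was at 45.5 ± 3.43 CPM per kb in WT, Cdh2 at 37.7 ± 2.02, and the type II genes Cdh20 and Cdh22 at 37.1 ± 9.76 and 35.1 ± 10.9 (SD, n = 3). These 4 overlapped within their spread except that Cdh4 lay above Cdh2, and that order turned with the length used: by the longest transcript Cdh2 was at 62.7 and Cdh4 at 51.6 CPM per kb. Together with Cdh13, which was at 15.5 ± 5.21 and was at 38.2 by the longest transcript, they led the family by both lengths. Cdh19 (11.3 ± 2.87) and Pcdh10 (11.03 ± 2.34) followed without a difference beyond their spread, then Pcdh7 (7.82 ± 1.14) and Pcdh9 (7.12 ± 0.740), again within their spread. Pcdh15 was at 0.682 ± 0.122 CPM per kb in WT, and Pcdh8 and Pcdh20 were lowest at 0.196 and 0.135.

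**Figure D1:**
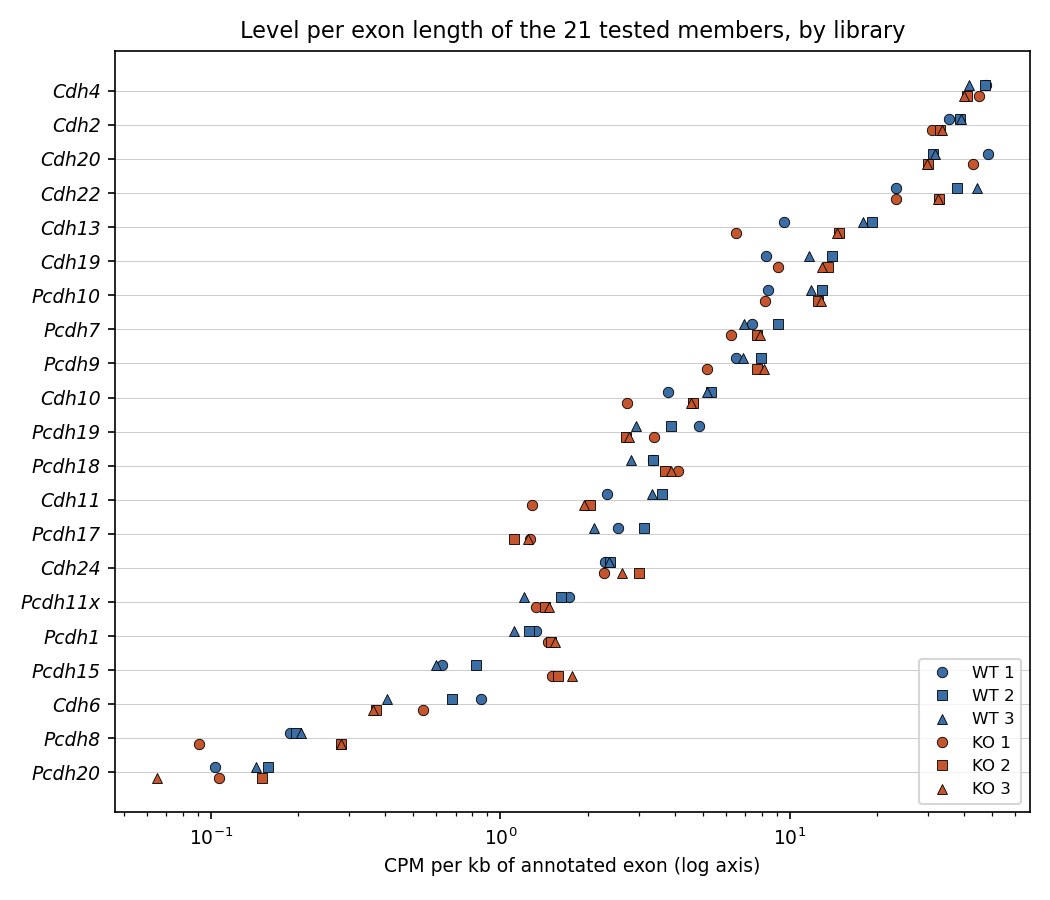
Level per kilobase of annotated exon (CPM per kb, log axis) for the 21 tested members, ordered by the WT mean; each point is 1 library, blue for WT and orange for KO. Cdh4, Cdh2, Cdh20 and Cdh22 lead in both groups, and Pcdh15 is the member whose KO points lie farthest to the right of its WT points.

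In KO cells Pcdh15 was higher and Pcdh17 and Cdh11 were lower. Cdh4, Cdh2, Cdh20 and Cdh22 made up most of the family's RNA per kb. With the replicate block in edgeR they were at −0.12, −0.21, −0.11 and −0.22 (log2) and were not called, while Cdh13 was called lower. Summed per kb of exon, the family was at 218.6 to 244.6 CPM per kb over the WT libraries and 197.5 to 215.4 over the KO libraries. In plain CPM the family sums overlapped, at 1537 to 1806 over the WT libraries and 1372 to 1579 over the KO libraries. Without a block, edgeR's quasi-likelihood test called 0 of the 21 members, against 0.0585% of all 13683 tested genes, at a Benjamini-Hochberg adjusted p under 0.05; 3 members had an unadjusted p under 0.05 (Pcdh15, Pcdh17 and Cdh11), against 5.81% of all genes, and DESeq2 called 2 of them (Pcdh15 and Pcdh17), against 1.92% of all genes. With the replicate block the same edgeR test called 7 members (33.3%), against 9.79% of all genes: 1 was higher, against 3.33%, and 6 were lower, against 6.46%. DESeq2 with the block called 5 of these 7, against 9.17% of all genes. Below, rose and fell refer to this blocked fit. The median log2 fold change of the 21 members was −0.12 without the block and −0.11 with it, beside medians of 0.0053 and 0.0068 over all tested genes. The groups did not overlap for 6 members (28.6%), against 11.2% of all genes. Of these, 3 were higher in KO (Pcdh15, Pcdh1 and Pcdh18), against 4.49% of all genes, and 3 were lower (Pcdh17, Cdh11 and Cdh2), against 6.71%. In 9 members KO was lower in all 3 same-numbered pairs, against 23.6% of all genes, and in 3 it was higher in all 3, against 22.6%.

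**Figure D2:**
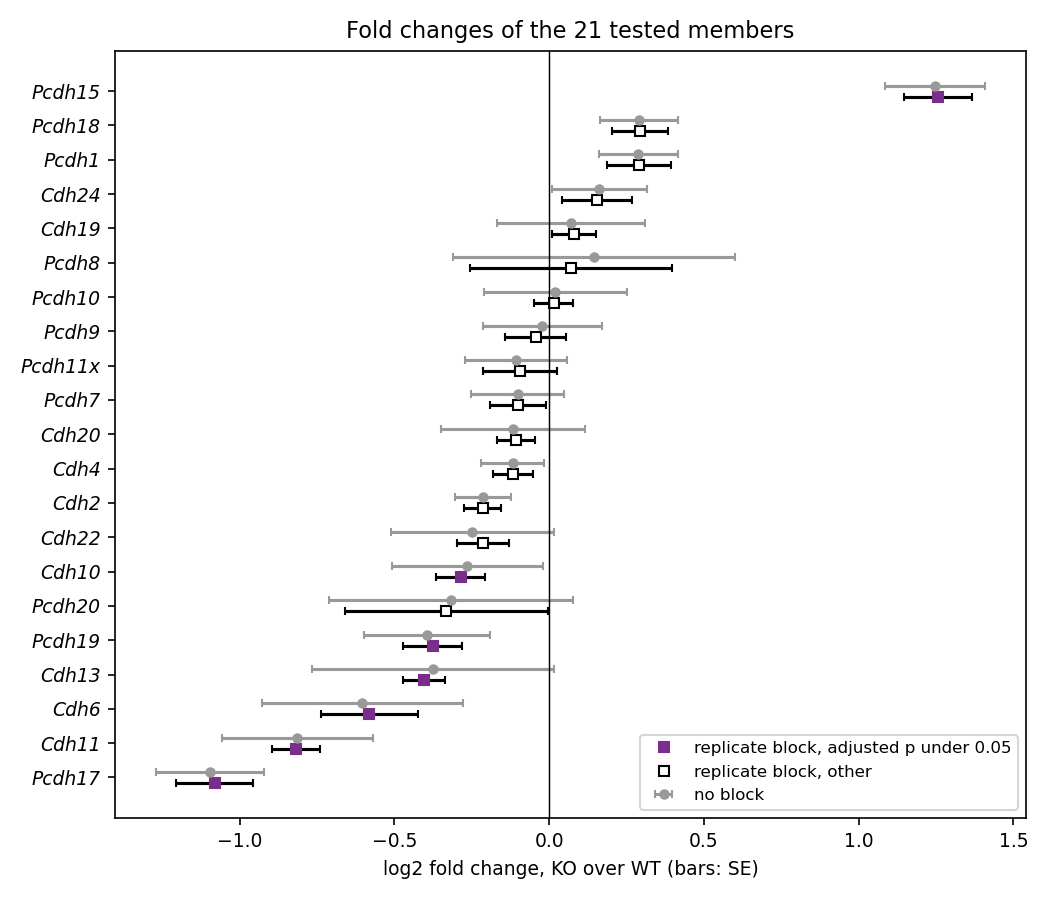
Log2 fold change of KO over WT with its SE for the 21 tested members, without a block (grey circles) and with the replicate block (squares, purple where the adjusted p was under 0.05). Pcdh15 is far to the right at 1.26 and Pcdh17 and Cdh11 far to the left at −1.08 and −0.82, and the block shortens the error bars while the estimates stay close.

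Pcdh15 encodes one strand of the tip link that opens transduction channels in inner ear hair cells, and its RNA is also found in oligodendrocyte precursor cells. It lies on chromosome 10 (73099342 to 74649737, plus strand, GRCm38). Its level was 14.9, 19.5 and 14.2 CPM in WT 1, 2 and 3 and 35.7, 37.7 and 41.9 CPM in KO 1, 2 and 3. Every KO library was above every WT library, with no overlap and little spread within KO. The rise was 2.39-fold, or 1.26 ± 0.110 (log2, SE), and edgeR with the block gave it an adjusted p of 0.000121. Without the block edgeR put it at 1.25 ± 0.161, with an adjusted p of 0.0959. Markers of the oligodendrocyte lineage went different ways beside it: Pdgfra rose by 0.56 ± 0.0696 and Bcas1 by 1.19 ± 0.0657, Cspg4 was at −0.01 ± 0.0831, and Sox10 and Nkx2-2 fell, at −0.92 ± 0.121 and −1.23 ± 0.0721 (log2, SE, with the block). Of the 9 markers listed, 2 rose and 2 fell, where 3.33% of all genes rose and 6.46% fell. Their part in the Pcdh15 difference was not tested.

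Pcdh17 encodes a delta2 protocadherin of axons and synapses. It lies on chromosome 14 (84443563 to 84539002, plus strand, GRCm38). Its level was 33.0, 40.7 and 27.3 CPM in WT 1, 2 and 3 and 16.5, 14.5 and 16.2 CPM in KO 1, 2 and 3. The KO libraries lay close together and all below the lowest WT library. It fell to 0.473 of the WT level, or −1.08 ± 0.125 (log2, SE), with an edgeR adjusted p of 0.000644 in the blocked fit; the unblocked fit gave −1.10 ± 0.173 and 0.153. Among the members, Pcdh15 and Pcdh17 alone were called in all 7 fits with a block, in DESeq2 without one, and in numbers 2 and 3 alone.

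The promoters of these members with opposite changes are shown because they differ in composition. Both are RefSeq windows of 300 bases on GRCm38.p6, from 250 bases before to 50 after the start site, plus strand, 5′ to 3′. Capitals mark matches, on either strand, to the TATA box form TATAAA, the CCAAT box letters CCAAT, the GC box form GGGCGG, or the E-box form CACCTG that Snail and Zeb factors can bind. No 2 matches overlap in these windows.
Pcdh15, chr10:73821617-73821916: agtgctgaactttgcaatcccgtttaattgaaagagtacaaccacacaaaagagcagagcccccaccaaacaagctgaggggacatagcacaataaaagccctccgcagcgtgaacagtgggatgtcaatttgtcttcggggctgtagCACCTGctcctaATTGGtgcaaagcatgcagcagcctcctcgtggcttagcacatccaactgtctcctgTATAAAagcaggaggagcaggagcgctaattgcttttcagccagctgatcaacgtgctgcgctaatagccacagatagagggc
Pcdh17, chr14:84443313-84443612: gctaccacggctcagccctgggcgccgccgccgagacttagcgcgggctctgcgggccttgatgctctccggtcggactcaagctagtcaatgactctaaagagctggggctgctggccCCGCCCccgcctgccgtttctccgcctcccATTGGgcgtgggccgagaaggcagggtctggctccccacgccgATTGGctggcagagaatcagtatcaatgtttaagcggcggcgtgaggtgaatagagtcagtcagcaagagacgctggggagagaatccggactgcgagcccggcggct
The Pcdh15 window held 8 CpG dinucleotides, with 51.4% of all 32851 RefSeq entries holding fewer, and the Pcdh17 window held 26, with 83.1% holding fewer. The Pcdh15 window had 1 TATAAA, which 13.6% of all entries hold, 1 CACCTG (20.2% of entries) and 1 CCAAT (37.4%). The Pcdh17 window had 2 CCAAT and 1 GGGCGG (35.7%), and neither TATAAA nor CACCTG. For Pcdh15, 28 of its 41 GENCODE transcripts start within 100 bases of this start site, and the counts do not say which start was used. Among the other members that fell, the window of Pcdh19 held 18 CpG, that of Cdh6 held 8 and that of Cdh10 held 2. Of their annotated transcripts, 1 of 5, 2 of 2 and 1 of 6 start within 100 bases of the start site. Cdh11 and Cdh13, which also fell, had no RefSeq entry. Of the 35 members, 22 had a RefSeq entry. These matches describe letters in the windows and no factor's binding was measured.

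Type II cadherins bind one another selectively and mark brain nuclei and cell layers. Of the 7 tested, Cdh11, Cdh6 and Cdh10 fell and none rose, against 6.46% of all genes lower and 3.33% higher. Cdh11, also the main cadherin of mesenchymal cells (chromosome 8, 102632095 to 102785642, minus strand, GRCm38), was at 20.8, 32.1 and 29.7 CPM in WT 1, 2 and 3 and 11.5, 18.2 and 17.3 CPM in KO 1, 2 and 3. The groups did not overlap, and the libraries numbered 1 were the lowest in each. Cdh11 fell to 0.567 of the WT level, or −0.82 ± 0.0786 (log2, SE), with an edgeR adjusted p of 0.000201 in the blocked fit; the unblocked fit gave −0.81 ± 0.243 and 0.532. It was called in all 7 fits with a block and in numbers 2 and 3 alone, but not by DESeq2 without a block (0.0985). The 10 mesenchymal markers summed to 35.8 to 46.7 CPM in WT and 40.3 to 65.6 in KO, nearly all of it Foxc1 (36.8 ± 7.12 and 47.8 ± 13.9 CPM, SD, n = 3). Foxc1 rose by 0.36 ± 0.0779 (log2, SE, with the block). Col1a2 was at 0.735 ± 0.311 CPM in WT and 0.191 ± 0.0610 in KO, and it passed the filter on low counts only through WT, so no test is given. Dcn and Foxd1 were at 0 in every library. Whether such cells took part in the Cdh11 difference was not tested.

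Cdh6 and Cdh10 had adjusted p close to the limit. Cdh6 was at 7.72, 6.12 and 3.67 CPM in WT 1, 2 and 3 and 4.89, 3.35 and 3.27 CPM in KO 1, 2 and 3, so the groups overlapped through WT 3 and KO 1. Its change was −0.58 ± 0.156 (log2, SE), and edgeR with the block gave an adjusted p of 0.0438. Cdh10 was at 38.0, 53.7 and 51.9 CPM in WT and 27.5, 46.5 and 45.6 CPM in KO 1, 2 and 3. It was lower in KO in each same-numbered pair, but KO 2 and KO 3 lay above WT 1. Its change was −0.29 ± 0.0794 with adjusted p = 0.04996 in edgeR with the block, and DESeq2 with the block called neither gene (0.0728 for Cdh6 and 0.0562 for Cdh10). Both calls were also lost when number 1 or number 2 was left out of both groups, or when KO 2 and KO 3 were summed, as was the Pcdh19 call below.

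The abundant type II genes were not called. Cdh20 was at 194, 125 and 127 CPM in WT 1, 2 and 3 and 172, 120 and 120 CPM in KO 1, 2 and 3, and Cdh22 at 85.7, 140 and 164 CPM in WT and 86.2, 122 and 120 CPM in KO. In both genes the library numbered 1 stood farther from numbers 2 and 3 than KO stood from WT. With the block the log2 fold changes were −0.11 ± 0.0608 for Cdh20 and −0.22 ± 0.0845 for Cdh22 (SE), with edgeR adjusted p of 0.326 and 0.152. Cdh19, a cadherin of Schwann cell and oligodendrocyte precursors, and Cdh24 were at 0.08 ± 0.0724 and 0.15 ± 0.112 (log2, SE).

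The type I genes Cdh2 and Cdh4, the largest by counts, did not pass. Cdh2 was at 285, 312 and 314 CPM in WT 1, 2 and 3 and 249, 266 and 269 CPM in KO 1, 2 and 3. The highest KO library lay a small step under the lowest WT library. In edgeR with the block the change was −0.21 ± 0.0603 (log2, SE), with an adjusted p of 0.0523 against 0.865 without it. Upper-quartile scaling with the block gave −0.24 and an adjusted p of 0.0323 in edgeR, and leaving number 3 out of both groups gave 0.0228. Cdh4 was at 345, 344 and 301 CPM in WT and 327, 296 and 289 CPM in KO, with overlapping groups, a change of −0.12 ± 0.0644 and adjusted p = 0.307 in edgeR with the block. Summed per kb of exon, the type I genes were at 80.4 to 86.1 CPM per kb over the WT libraries and 73.2 to 76.0 over the KO libraries.

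Cdh13 encodes T-cadherin, which is tied to the membrane by a lipid anchor and has no cytoplasmic tail. It was at 107, 215 and 201 CPM in WT 1, 2 and 3 and 73.2, 167 and 164 CPM in KO 1, 2 and 3. KO was lower in each pair of the same number, while the groups overlapped because WT 1 was low. The change was −0.40 ± 0.0682 (log2, SE) with adjusted p = 0.00476 in edgeR with the block, against −0.38 ± 0.390 and adjusted p = 0.999 without it. The call was lost when number 1 was left out of both groups (−0.33 ± 0.0984, with an edgeR adjusted p of 0.0514).

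**Figure D3:**
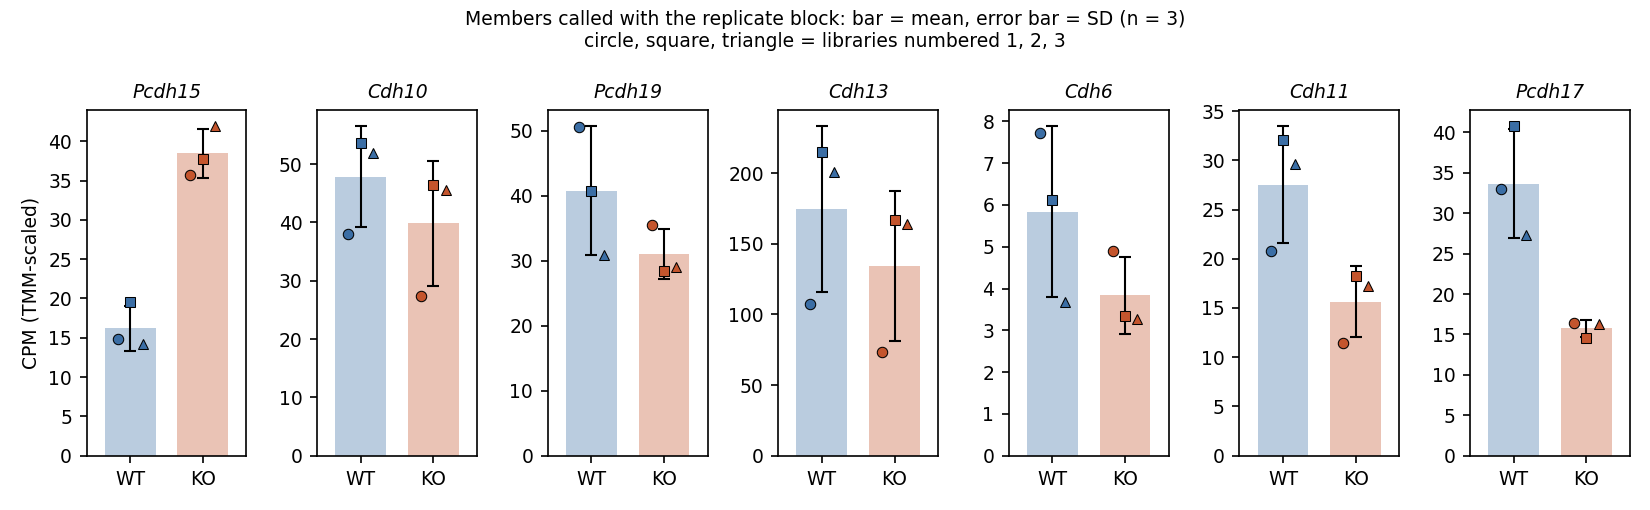
CPM in each library for the 7 members called with the replicate block, ordered by fold change; bars are means, error bars SD (n = 3), and circles, squares and triangles the libraries numbered 1, 2 and 3. The groups separate for Pcdh15, Cdh11 and Pcdh17, while for Cdh10, Pcdh19, Cdh13 and Cdh6 they overlap and the difference shows within libraries of the same number.

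Among the 5 delta2 protocadherins, Pcdh17 and Pcdh19 fell and none rose (all genes: 6.46% lower, 3.33% higher). Pcdh19, an X-linked gene whose product acts with N-cadherin, was at 50.6, 40.8 and 30.8 CPM in WT 1, 2 and 3 and 35.4, 28.5 and 29.1 CPM in KO 1, 2 and 3. WT 3 lay below KO 1, so the groups overlapped, and the pair numbered 3 differed least. The change was −0.38 ± 0.0954 (log2, SE) with adjusted p = 0.0352 in edgeR with the block. Pcdh10, the most abundant delta protocadherin by counts, was at 134, 205 and 187 CPM in WT and 130, 199 and 204 CPM in KO, a change of 0.01 ± 0.0633 with adjusted p = 0.920 in edgeR with the block. Its sign turned with upper-quartile scaling. Pcdh18 was at 18.1, 18.0 and 15.1 CPM in WT and 22.0, 19.8 and 20.9 CPM in KO, without overlap, at 0.29 ± 0.0911 and adjusted p = 0.0747 in edgeR with the block. Pcdh8 was at 0.848, 0.893 and 0.932 CPM in WT and 0.414, 1.27 and 1.28 CPM in KO. KO 1 was the lowest library and KO 2 and KO 3 the highest, and the sign of the change turned when KO 2 or KO 3 was left out.

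None of the 4 delta1 protocadherins was called by edgeR or DESeq2, with or without the block, and none had an edgeR unadjusted p under 0.05 without it. With the block 9.79% of all genes were called by edgeR and 9.17% by DESeq2, and 5.81% had such a p without it. A lack of calls among 4 genes does not set this class apart. Pcdh1 was at 11.7, 11.01 and 9.77 CPM in WT 1, 2 and 3 and 12.9, 13.2 and 13.6 CPM in KO 1, 2 and 3, without overlap, at 0.29 ± 0.103 (log2, SE) and adjusted p = 0.114 in edgeR with the block. Pcdh7 was at 78.7, 96.5 and 73.6 CPM in WT and 66.3, 81.6 and 83.8 CPM in KO, a change of −0.10 ± 0.0900, and it was called when number 3 was left out of both groups (−0.25, edgeR adjusted p of 0.0292). A processed transcript on the opposite strand covers 21.1% of the Pcdh7 exon bases, and whether counting used strand is not stated. Pcdh9 was at 44.2, 53.9 and 46.8 CPM in WT and 35.2, 52.4 and 55.1 CPM in KO, a change of −0.04 ± 0.0995. KO 1 was the lowest of its 6 libraries and KO 3 the highest. Pcdh11x, at −0.09 ± 0.120, was likewise not called. Outside the delta classes, Pcdh20 was at 0.565, 0.868 and 0.784 CPM in WT and 0.584, 0.825 and 0.357 CPM in KO, too low to order the groups.

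The members differed more by replicate number than by genotype in several cases. In 15 of 21 members (71.4%) the library numbered 1 lay outside numbers 2 and 3 in the same direction in both groups, against 74.2% of all genes. It was higher in 5 of them, against 36.3%, and lower in 10, against 37.9%. The gap was wide in both groups for Cdh13, where WT 1 was at 0.516 of the mean of WT 2 and WT 3 and KO 1 at 0.443 of the mean of KO 2 and KO 3. For Pcdh8 the gap was wider still in KO, at 0.324, but small in WT, at 0.929. Cdh6 and Cdh20 went the other way, at 1.58 and 1.54 in WT and 1.48 and 1.44 in KO. Pcdh15 (0.884 and 0.898) and Pcdh17 (0.970 and 1.07) had small gaps. The median absolute gap of the family was 0.29 in WT and 0.32 in KO (log2, from plain CPM). Over all tested genes it was 0.32 and 0.30, but there a small constant was added to each level. That shrinks the gaps of low genes, so the medians are not strictly comparable. What sets the libraries numbered 1 apart is not given in the labels.

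**Figure D4:**
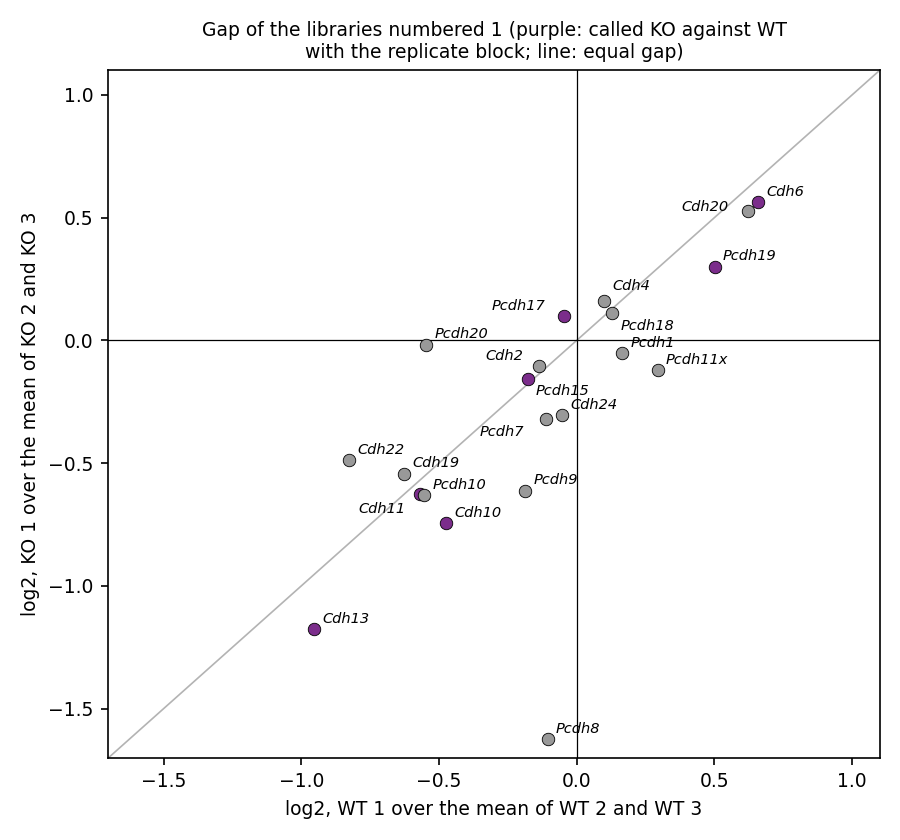
For each of the 21 tested members, the log2 ratio of the library numbered 1 to the mean of numbers 2 and 3, in WT (horizontal) and in KO (vertical); purple points were called for KO against WT with the replicate block. Most points lie along the line of equal gap, from Cdh13 at −0.95 and −1.18 to Cdh6 at 0.66 and 0.56, with Pcdh8, a gene near 1 CPM, far off it.

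Genes that work with cadherins were counted from lists chosen by function. Of 9 tested catenins and p120 relatives, 1 rose and 1 fell in edgeR with the block. Without it edgeR called neither, and DESeq2 called the same 2 genes. Ctnnal1, an alpha-catenin-like gene, rose from 24.9 ± 0.879 to 37.9 ± 0.824 CPM (0.61 ± 0.0720, log2), and Ctnna2, the neuronal alpha-catenin, fell from 4.11 ± 0.433 to 1.73 ± 0.404 CPM (−1.26 ± 0.171). The abundant core genes were not called: beta-catenin (Ctnnb1) had 996 ± 88.4 CPM in WT and 1007 ± 66.6 in KO, and Ctnna1 had 382 ± 29.4 and 402 ± 29.9 (SD, n = 3). Of 12 tested junction linkers and nectins, 3 rose and 1 fell. Among them Lima1, an actin-binding partner of alpha-catenin, rose by 0.41 ± 0.0759 and Actn1 by 0.37 ± 0.0929, and the nectin gene Pvrl1 changed by −0.29 ± 0.0729 (log2, SE). DESeq2 with the block called Lima1 and Actn1 but not Pvrl1 (adjusted p of 0.0547). The edgeR counts of both lists stand beside 3.33% of all genes called higher and 6.46% called lower.

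Of 13 tested genes of cadherin shedding and turnover, none was called with the block in edgeR, where 9.79% of all genes were. DESeq2 with the block also called 0 of them, against 9.17% of all genes. None of the 13 had an edgeR unadjusted p under 0.05 without the block, against 5.81% of all genes. The largest by counts, the phosphatase Ptprf and the sheddase Adam10, averaged 315 ± 48.4 and 308 ± 16.6 CPM without Cre and 338 ± 61.3 and 318 ± 1.47 CPM with it (SD, n = 3). None of the 9 tested WAVE complex genes was called either, by edgeR or by DESeq2 and with or without the block. Over all genes edgeR called 0.0585% without the block and 9.79% with it, and DESeq2 1.92% and 9.17%. No WAVE complex gene had an edgeR unadjusted p under 0.05 without the block, against 5.81% of all genes. A lack of calls in lists of 13 and 9 genes does not set these lists apart. Nckap1 was at 0.02 ± 0.0640 and Cyfip1 at 0.03 ± 0.0613 (log2, SE, with the block). Among the repressors of Cdh1, Twist1 had 3, 0 and 0 counts in WT 1, 2 and 3 and 28, 32 and 16 counts in KO 1, 2 and 3. It passed the filter on low counts only through the KO libraries, so its difference is given as counts, without a test. The abundant Zeb1 (444 ± 123 and 464 ± 87.8 CPM) and Tcf4 (465 ± 67.0 and 494 ± 53.6 CPM) were not called, and Cdh1 was at 0 counts throughout. Zeb2 was at 111 ± 18.7 CPM in WT and 135 ± 23.7 in KO (SD, n = 3). DESeq2 with the block called Zeb2 higher (adjusted p of 0.0395), where 9.17% of all genes were called. The edgeR fit with the block did not call it (0.0751).

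Of 14 tested genes elsewhere in the cadherin superfamily, 3 fell and none rose with the block, against 6.46% of all genes lower and 3.33% higher. Fat4, a receptor of planar polarity and growth control, changed by −0.91 ± 0.155, the planar polarity gene Celsr1 by −0.58 ± 0.0878 and the synaptic calsyntenin gene Clstn3 by −0.77 ± 0.197 (log2, SE). DESeq2 with the block called Fat4 and Celsr1 but not Clstn3 (0.126). Dchs1, the Fat4 ligand, had 196 ± 13.8 CPM in WT against 223 ± 7.97 in KO (SD, n = 3), with an adjusted p of 0.122 in edgeR with the block.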

How the data were processed

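Whole-number counts per gene symbol were deposited by the authors without normalization. RSEM, Bowtie2, Trim Galore, cutadapt and FastQC are listed, with build mm10, per the submitters' processing notes; their versions, the annotation and the strand setting were not stated. Groups and numbers came from the sample titles. Genes were kept by filterByExpr, scaled by TMM and tested in R 4.3.3 with edgeR 4.0.16 (quasi-likelihood, robust, two-sided, Benjamini-Hochberg over 13683 genes), without and with the replicate number as a block; DESeq2 1.42.0 was an alternative. The pairing by number comes from the correlations in the report, not from the labels, and WT 2 with KO 3 correlated as well (0.633), so numbers 2 and 3 are not told apart. KO 2 and KO 3 differed by more than counting noise (median chi-square per gene 1.02 against 0.455), but far less than the other pairs. The same median was 5.25 for WT 2 and WT 3 and 22.6 to 34.5 for pairs that include a number 1. Whether KO 2 and KO 3 are separate cultures is not given in the labels. Standard errors are the log2 fold change over the square root of F. Exon lengths and positions came from GENCODE vM21 (GRCm38), which matched 95.2% of symbols to 1 gene, and promoters from RefSeq. The fits were tested on simulated data.

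Values are printed for members called in either fit, the leading 2 of each structural class per exon length, and members at 1 CPM or more whose groups do not overlap; of each partner list, up to 4 called genes, or the 2 most abundant if fewer than 2 were called. The values of 1 such gene are not reported here. Values of Cdh19, Cdh24, Pcdh8, Pcdh11x, Ctnnb1, Ctnna1, Dchs1, Zeb2 and single cell type markers were added after they were seen. The members and lists were chosen with earlier results of these data known.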

Additional observations from a re-analysis of the deposited data

How the results depend on the processing

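The 2 counts depend on the block. All genes called were 8 without a block and 1340 with the replicate block, 1310 with it and upper-quartile scaling, 262 in DESeq2, 1255 in DESeq2 with the block, 1037, 1248 and 1456 with the block and number 1, 2 or 3 left out of both groups, 688 with KO 2 and KO 3 summed and number 1 against the others as the block, 743 in numbers 2 and 3 alone (added after the data were seen), and 0 to 21 when 1 library was left out without a block. Members called were 0 without a block and, in the same order, 7, 8, 2, 5, 3, 4, 9, 4 and 3. No single-library omission, RLE scaling or lack of a count filter called any member. The family's median log2 fold change lay between −0.19 and −0.066 in all alternatives. Pcdh15, Pcdh17 and Cdh11 kept their direction in all 19 fits. So did Pcdh1, Pcdh18, Pcdh19, Pcdh20, Cdh2, Cdh4, Cdh6, Cdh10, Cdh13, Cdh22 and Cdh24, so a kept sign does not set a member apart. Signs turned, without a call, for Pcdh10 (−0.011 by upper quartile, −0.015 with the block too, −0.039 with the block without number 3), Pcdh11x (0.051 and 0.038 without number 1, with and without the block), Pcdh8 (−0.19 and −0.15 with the block without number 2 or 3) and Pcdh9 (0.097 and 0.093 without number 1). Over single-library omissions the ranges were −0.101 to 0.26 for Cdh19, −0.31 to 0.13 for Cdh20, −0.133 to 0.20 for Pcdh10, −0.25 to 0.0095 for Pcdh11x, −0.19 to 0.022 for Pcdh7, −0.080 to 0.52 for Pcdh8 and −0.14 to 0.155 for Pcdh9. Single omissions without a block also moved values by over 1.5 times without turning the sign, in more cases than are listed here. Without KO 1, Cdh13 went from −0.38 to −0.078 and Cdh10 from −0.26 to −0.055. Without WT 1, Cdh13 went to −0.62, Cdh22 from −0.25 to −0.465 and Cdh6 from −0.60 to −0.34. Pcdh19 went from −0.39 to −0.196 and Cdh4 from −0.12 to −0.074, also without WT 1. Cdh22 went to −0.050 without WT 3. Pcdh20 went from −0.32 to −0.066 without KO 3 and to −0.63 without KO 2. Cdh24 went from 0.16 to 0.065 without KO 2. The cause of these shifts was not tested.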
